A study of Mus musculus with 6 samples.

Results

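Genes grouped under nutrient shortage, low oxygen, fasting and iron sensing were examined, 8 of the 56953 features in the count table: Asns, Pdk4, Hilpda, Car9, Pnrc1, Rragd, Nr4a3 and Aco1. Pnrc1 and Nr4a3 were on none of the lists of these responses used below. Pnrc1 was on a list of nuclear receptor coactivators and Nr4a3 on one of immediate early genes. The 8 genes were chosen by their known function and by the place of their rows on stretches of chromosomes 4 and 6 where gene names fit the reads. The mutant and wild-type values of these same libraries were in view when the choice was made, so the differences given for these 8 genes are a description and support nothing. No threshold on the size of a change was part of the choice. RNA sequencing of polyadenylated RNA covered tailbud tissue of mouse embryos at embryonic day 9.5, the posterior end that gives rise to neuromesodermal progenitors and to somitic and intermediate mesoderm. There were 3 wild-type libraries and 3 libraries homozygous for an Fgfr1 allele, FCPG, whose point mutations change receptor residues that bind signaling effectors. The comparison asks what changes in the transcripts of developing mesoderm when those links are missing. The labels name no treatment, strain, litter or sex. Whether a library holds a single embryo or a pool is not stated either, so p-values measure the spread between these libraries only.

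Cells that run short of amino acids translate the transcription factor ATF4, which switches on genes of amino acid synthesis and uptake. Low oxygen stabilizes the hypoxia-inducible factors HIF, which switch on genes of glycolysis, pH control and lipid storage. Fasting acts through nuclear receptors and FOXO factors to spare glucose, and the Rag GTPases report amino acid supply to the growth kinase mTORC1 at the lysosome.

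Gene names fitted the reads in places only. The check used 987 genes of families that nearly every cell uses, picked by the start of their symbols and not by measured expression. Of these, 297 reached a mean of 10 CPM (counts scaled to a common library size), with a median of 0.649 CPM over all. On 2 stretches, of chromosomes 4 and 6, all 32 of 32 did, with a median of 205 CPM, which follows in part from how the stretches were found. All 8 genes examined lay on them, and their nearest ubiquitous neighbors stood at 20.4 to 2404 CPM. Hilpda lay near the end of the chromosome 6 stretch, between Arf5 and Atp6v1f, and fell outside it with a detection minimum of 20 CPM. In the older annotation used for gene order, the nearest protein-coding gene lay 4.15 kb from Hilpda and stood at 2.62 CPM. The Car9 model ended 0.98 kb from Tpm2, at 118 CPM, and shared 214 bases with a predicted gene on the opposite strand at 3.91 CPM. The setting of strand in the authors' counting is not given in the sources used here, so reads of such pairs cannot be told apart. Rows named for the tailbud genes T, Fgf8, Tbx6, Msgn1, Cdx2, Wnt3a and Hes7, and for Fgfr1 itself, lay outside these stretches, so neither tissue nor genotype could be checked by them. Library totals ran from 16984568 to 27316475 counts.

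In the mutant, the transcripts of Pnrc1 and Hilpda stood about 2.12 and 1.70 times as high as in wild type, with no overlap between the groups. Asns, Car9 and Pdk4 had higher means in the mutant too, but overlapping groups and a wide spread between mutant libraries. For Nr4a3 the mean was higher and the groups did not overlap, but the spread was wide within both. Rragd and Aco1 differed little. All 8 log2 fold changes were above 0, from 0.15 to 2.84 with a median of 0.65. The median was -0.01 over the 14550 features tested and 0.055 over the 362 tested nuclear genes of the readable stretches. A gene is called here where the quasi-likelihood test of edgeR gave a p below 0.05 after Benjamini-Hochberg adjustment over all tested features, and 2 of the 8 were called higher and 0 lower. Of all features 4.25% were called higher and 3.67% lower, and of the 362 tested nuclear genes of the readable stretches 8.29% were called higher. At an unadjusted p below 0.05 the counts were 4 higher and 0 lower among the 8, against 13.1% and 12.5% of all features. Since this contrast was in view when the genes were picked, nothing is read from these counts. Every mutant library stood above every wild-type library for 3 of the 8, against 15.8% of all features, and below for 0, against 16.1%.

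**Figure D1:**
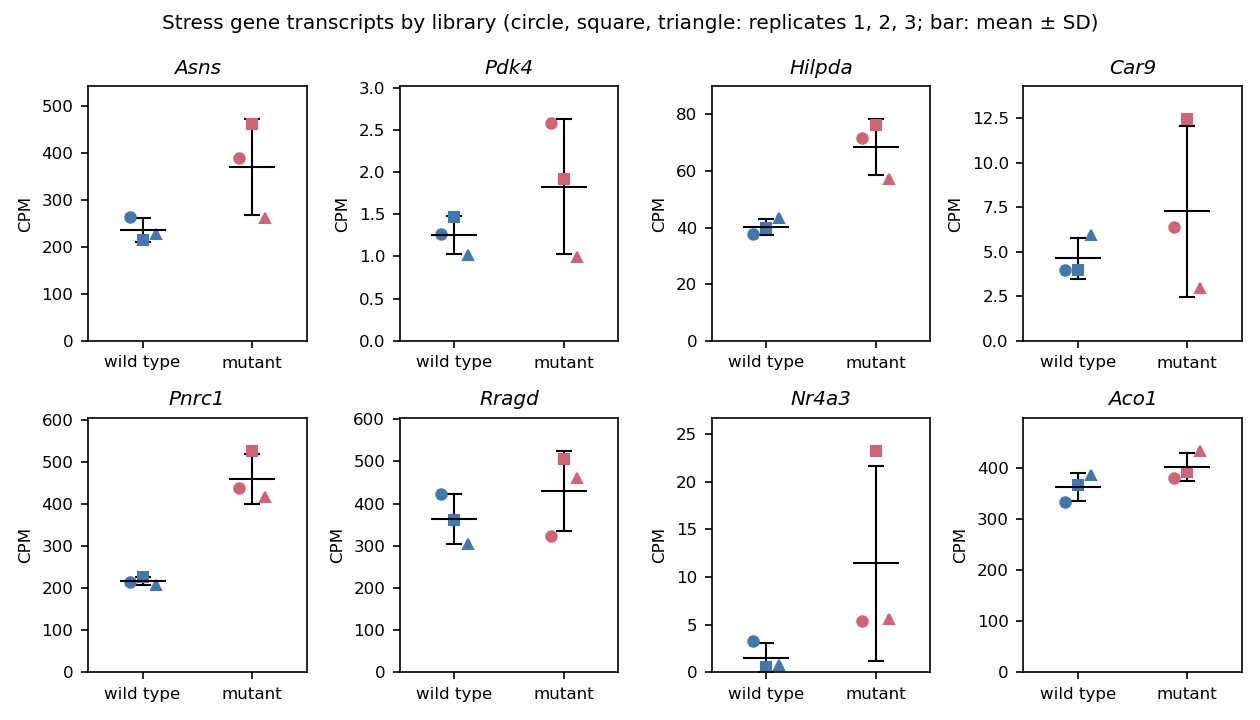
Level of each transcript in CPM (vertical axis, from 0, scaled per gene) in the 3 wild-type (blue) and 3 mutant (red) libraries, with the mean and SD as black bars. The groups stand apart for Hilpda, Pnrc1 and Nr4a3 and overlap for the other 5 genes.

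Asns encodes asparagine synthetase, which makes asparagine from aspartate and is a classical target of ATF4. Its RefSeq promoter is shown because it holds the element through which amino acid shortage acts on this gene, TGATGNAAN in its general form. The stretch is the last 120 bases before the start of transcription, chr6:7693210-7693329, minus strand, GRCm38.p6, written 5′ to 3′ with matches to the motifs searched in capitals.
Asns: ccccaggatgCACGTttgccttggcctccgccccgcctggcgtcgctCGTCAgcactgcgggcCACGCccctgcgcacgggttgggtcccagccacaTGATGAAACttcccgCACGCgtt
The match TGATGAAAC lay 23 to 15 bases before the start. A match to TGATGNAAN on either strand was found in 3.4% of the 32851 promoter windows of 250 bases in that table, and Asns alone had one among the 8 genes. A match is a run of letters, not a bound site.

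In wild-type replicates 1, 2 and 3 the Asns transcript stood at 264, 214 and 228 CPM, and in mutant replicates 1, 2 and 3 it stood at 389, 461 and 261 CPM. Values of the other genes follow the same order of libraries. Mutant replicates 1 and 2 were above all wild-type libraries, whereas mutant replicate 3 was just below wild-type replicate 1. The means were 236 ± 25.7 and 371 ± 101 CPM (SD, n = 3 per group). The difference on the log2 scale was 0.65 ± 0.19 (SE) and was not called. Without mutant replicate 3 it was 0.87 and called, and without mutant replicate 2 it was 0.47 and not called. Asns was the sole gene of the 47 on the amino acid response list that lay on a readable stretch, so the other targets of ATF4 are not described.

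Hilpda and Car9 are both induced through HIF. Hilpda encodes a small protein of lipid droplets that inhibits the breakdown of stored triglyceride, and Car9 encodes a carbonic anhydrase of the cell surface that regulates pH in hypoxic cells. Short promoter stretches of both are shown for the core letters of the hypoxia response element, ACGTG, which reads CACGT on the other strand (capitals). The piece of Hilpda precedes the second of its 2 annotated starts, chr6:29272571-29272600, plus strand, and that of Car9 precedes its start, chr4:43506966-43507025, plus strand, both in GRCm38.p6 from RefSeq.
Hilpda: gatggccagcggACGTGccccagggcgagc
Car9: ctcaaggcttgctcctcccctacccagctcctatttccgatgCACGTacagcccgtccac
The Hilpda match lay 43 to 39 and the Car9 match 18 to 14 bases before the start. On either strand ACGTG was found in 16.6% of all promoter windows, and the related core GCGTG in 28.2%. Among the 8 genes, ACGTG was found for Asns, Hilpda, Car9 and Nr4a3.

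Hilpda stood at 37.6, 39.9 and 43.3 CPM in wild type, and the mutant libraries held 71.7, 76.1 and 57.2 CPM. The lowest mutant library was above the highest wild-type library, and the mutant libraries were spread more widely than the wild-type ones. With means of 40.3 ± 2.85 and 68.4 ± 9.91 CPM (SD, n = 3 per group), the log2 fold change was 0.76 ± 0.12 (SE). It was called in the fit of all libraries, but not without wild-type replicate 2, where its size was the same, 0.76.

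Car9 was scarce, at 3.99, 3.98 and 5.94 CPM in wild type and 6.40, 12.4 and 2.97 CPM in the mutant, which correspond to 78 to 221 reads. The mutant libraries held both the highest and the lowest of the 6 values, so the groups overlapped fully. Its log2 fold change of 0.64 ± 0.46 (SE) went to 0.03 without mutant replicate 2 and to 1.04 without mutant replicate 3, and it was called in none of these fits. These were the readable 2 of the 46 genes on the hypoxia list.

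Pdk4 encodes a kinase of fasting and fat oxidation that shuts the pyruvate dehydrogenase complex and so keeps pyruvate out of the mitochondrial citric acid cycle. It was near the lower limit of what was tested, with 1.27, 1.47 and 1.02 CPM in wild type and 2.58, 1.91 and 0.990 CPM in the mutant, or 19 to 62 reads. Mutant replicates 1 and 2 were above all wild-type libraries and mutant replicate 3 was below them all. The log2 fold change was 0.53 ± 0.38 (SE), between 0.19 and 0.85 with 1 library left out, and was not called. It was the sole readable gene of the 28 on the fasting list.

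Pnrc1 encodes a proline-rich coactivator of nuclear receptors that is also found in the nucleolus. Of the lists used here it was only on that of such coactivators, so its change is not read as a stress response. Its level was 216, 227 and 209 CPM in wild type, and 438, 527 and 416 CPM were measured in the mutant. Each group was tight and the groups were far apart: the highest library exceeded the lowest by 1.09 times in wild type and by 1.27 times in the mutant. The means of 217 ± 9.14 and 460.5 ± 58.9 CPM (SD, n = 3 per group) gave a log2 fold change of 1.08 ± 0.10 (SE). The call held in each of the 13 alternative fits, with values between 0.99 and 1.17. None of the 7 motifs searched was found in the 250 bases before its start.

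Nr4a3 encodes an orphan nuclear receptor of the NR4A family, an immediate early gene that fasting signals and many other stimuli induce through cyclic AMP. Its promoter is shown because several copies of the core of the cyclic AMP response element, TGACG, or CGTCA on the other strand, stood in it (capitals). The stretch is chr4:48045065-48045175, plus strand, in GRCm38.p6 from RefSeq.
Nr4a3: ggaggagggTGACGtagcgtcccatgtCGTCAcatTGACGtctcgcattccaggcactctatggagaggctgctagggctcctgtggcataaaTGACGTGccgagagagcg
There were 4 matches in the 250 bases before the start, the last of which overlaps a match to ACGTG, and 17.8% of all promoter windows held at least 1. How many windows held 4 or more was not counted. Matches to TGACG were found for Asns and Hilpda as well.

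In wild type, Nr4a3 stood at 3.32 CPM in replicate 1 and at 0.589 and 0.749 CPM in replicates 2 and 3, and in the mutant at 5.45, 23.3 and 5.64 CPM. All mutant libraries were above all wild-type libraries, but the ratio of highest to lowest was 5.63 within wild type and 4.27 within the mutant. The log2 fold change of 2.84 ± 0.78 (SE) had the largest size and the largest error of the 8 and was not called. It was 1.81 without mutant replicate 2, again not called, and it was called at 3.17 without mutant replicate 3 and at 4.10 with wild-type replicate 1 left out. Of the 31 immediate early genes on the list, Klf4, a zinc finger factor, was the other one that could be read, at 19.2 ± 3.16 and 17.1 ± 5.04 CPM (adjusted p = 0.657 by edgeR).

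Rragd encodes RagD, a small GTPase that pairs with RagA or RagB to recruit mTORC1 to the lysosome when amino acids are present. It stood at 423, 362 and 304 CPM in wild type and 324, 507 and 461 CPM in the mutant, so that mutant replicate 1 lay below the wild-type libraries 1 and 2. The log2 fold change was 0.25 ± 0.18 (SE), not called, and 0.08 with a term for embryo sex. Mios encodes a subunit of GATOR2, the complex that relays amino acid supply to the Rag GTPases, and was the other readable gene of the 40 on that list. Its list was drawn up with earlier results of these data known, so its test is not independent of them. It rose from a mean of 97.2 ± 5.35 CPM in wild type to 142.6 ± 12.8 CPM in the mutant (SD, n = 3 per group), where 3 of 3 libraries were above every wild-type one. Its log2 fold change was 0.55 ± 0.10 (SE), with an adjusted p of 0.0149 in edgeR. The call was lost without wild-type replicate 2, where the value was 0.55 (adjusted p = 0.0872 in edgeR), and without wild-type replicate 3, where it was 0.53 (adjusted p = 0.0674). Over the 13 alternative fits by edgeR, limma-voom and DESeq2, its adjusted p ran from 5.9e-05 to 0.0872. The lower end comes from the fit with no low-count filter, whose p-values for single genes are in doubt, and the next lowest was 0.000101 in the DESeq2 Wald test.

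Aco1 encodes the cytosolic aconitase, which loses its iron-sulfur cluster when iron is short and then, as iron regulatory protein 1, binds messenger RNAs of iron uptake and storage. Over all 6 libraries its transcript varied least of the 8 on the log2 scale, at 335, 368 and 388 CPM in wild type and 380.4, 394 and 435 CPM in the mutant. The groups overlapped, and the log2 fold change of 0.15 ± 0.09 (SE) was not called in any fit. The transcript level says nothing of the switch between enzyme and RNA-binding protein. None of the motifs was found before the starts of Aco1 and Rragd, and Pdk4 had a single match, to GCGTG.

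Per length of annotated exon, the 8 transcripts spanned a wide range in wild type. Pnrc1 was highest at 104 ± 4.36 CPM per kb (SD, n = 3), followed by Asns at 86.2 ± 9.41, Aco1 at 80.9 ± 5.92 and Rragd at 70.2 ± 11.5 CPM per kb. The ranges of Asns and Aco1 overlapped, as did those of Aco1 and Rragd. Hilpda stood at 36.5 ± 2.59, Car9 at 2.01 ± 0.491, Pdk4 at 0.357 ± 0.0649 and Nr4a3 at 0.259 ± 0.256 CPM per kb, and the last pair overlapped. In the mutant Nr4a3 stood at 1.91 ± 1.71 and Pdk4 at 0.520 ± 0.227 CPM per kb. The lengths come from an annotation other than the one the authors counted with, so these levels are approximate.

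**Figure D2:**
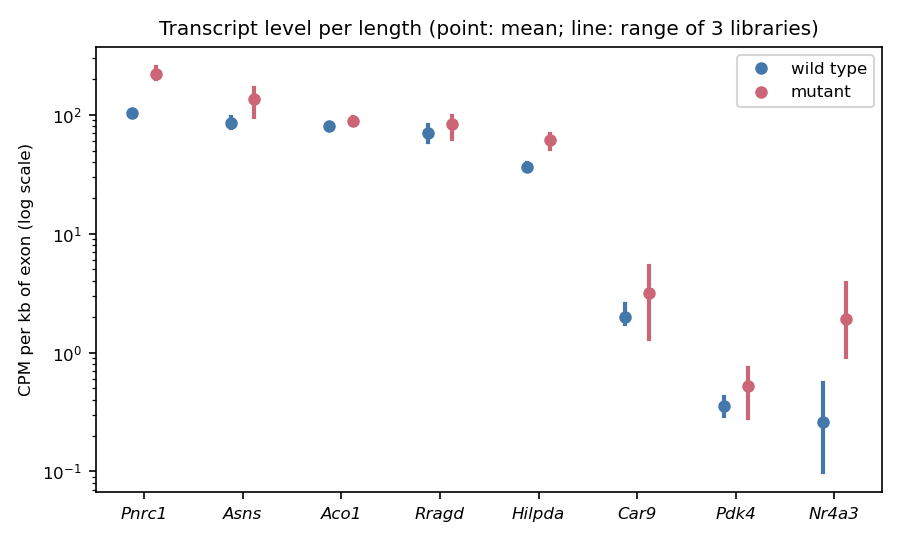
Mean level in CPM per kb of exon (vertical axis, log scale) of the 8 transcripts in wild type (blue) and mutant (red), with lines for the range of 3 libraries. Pnrc1, Asns, Aco1, Rragd and Hilpda stand between 36.5 and 104 CPM per kb in wild type, whereas Car9, Pdk4 and Nr4a3 stand at 2.01 or below.

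The 13 messenger RNAs of the mitochondrial genome, which encode parts of the machinery of respiration, moved the other way in the same libraries. They lie on a molecule of their own, where the check by neighboring nuclear genes does not apply. All 13 were called lower in the fit of all libraries, with log2 fold changes from -1.43 to -0.78, against 3.67% of all features. Their lower level was known from these data before they were set beside the 8 genes, so this count is a description and supports nothing. The sum of the 13 took 13.9%, 11.2% and 10.8% of the counts in wild-type replicates 1 to 3 and 6.23%, 5.30% and 5.91% in mutant replicates 1 to 3. Mutant replicate 2 had the lowest mitochondrial share and was the library in which 6 of the 8 genes were highest: Asns, Hilpda, Car9, Pnrc1, Rragd and Nr4a3. Mutant replicate 2 was also the smallest library, at 16984568 counts. Outside the 8, Mios, Cav1 and Col1a2 were highest there too, whereas Klf4, Hemgn and Tmod1 were highest in wild-type libraries. Mutant replicate 3 was the lowest mutant library for 5 of the 8, with a mitochondrial share between those of the other mutant libraries. How many of all features were highest or lowest in these libraries was not counted, so these counts show nothing particular to the 8. Among wild-type libraries the share was highest in replicate 1, which held the lowest values of Hilpda and Aco1 but the highest of Asns, Rragd and Nr4a3 in that group. With 6 libraries in separate groups no correlation is given. With library sizes taken without the mitochondrially encoded genes, 2 of the 8 were again called, against 4.23% of features called higher in that fit, and the log2 fold changes of Pnrc1, Hilpda and Asns were 1.08, 0.76 and 0.65. The scaling of the main fit (TMM) already sets aside the features of largest shift or level, so this fit could differ little from it.

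**Figure D3:**
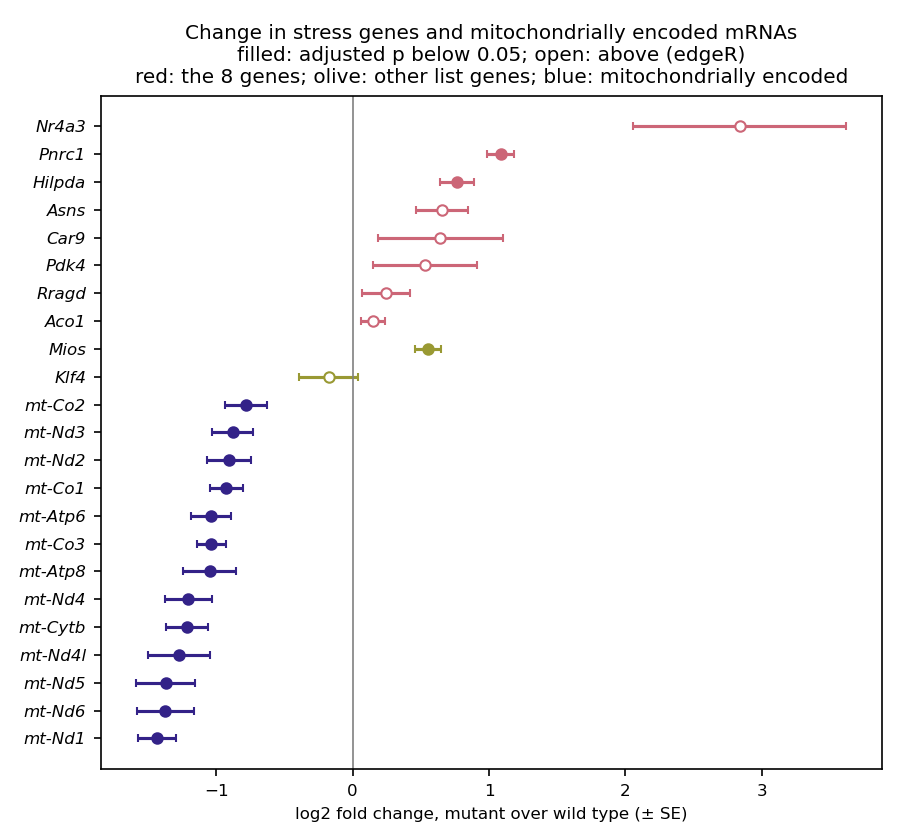
Log2 fold change of mutant over wild type with its SE (horizontal axis) for the 8 genes (red), 2 further list genes (olive) and the 13 mitochondrially encoded mRNAs (blue), with filled points for an adjusted p below 0.05 in edgeR. The 8 genes lie between 0.15 and 2.84 and the mitochondrial ones between -1.43 and -0.78.

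**Figure D4:**
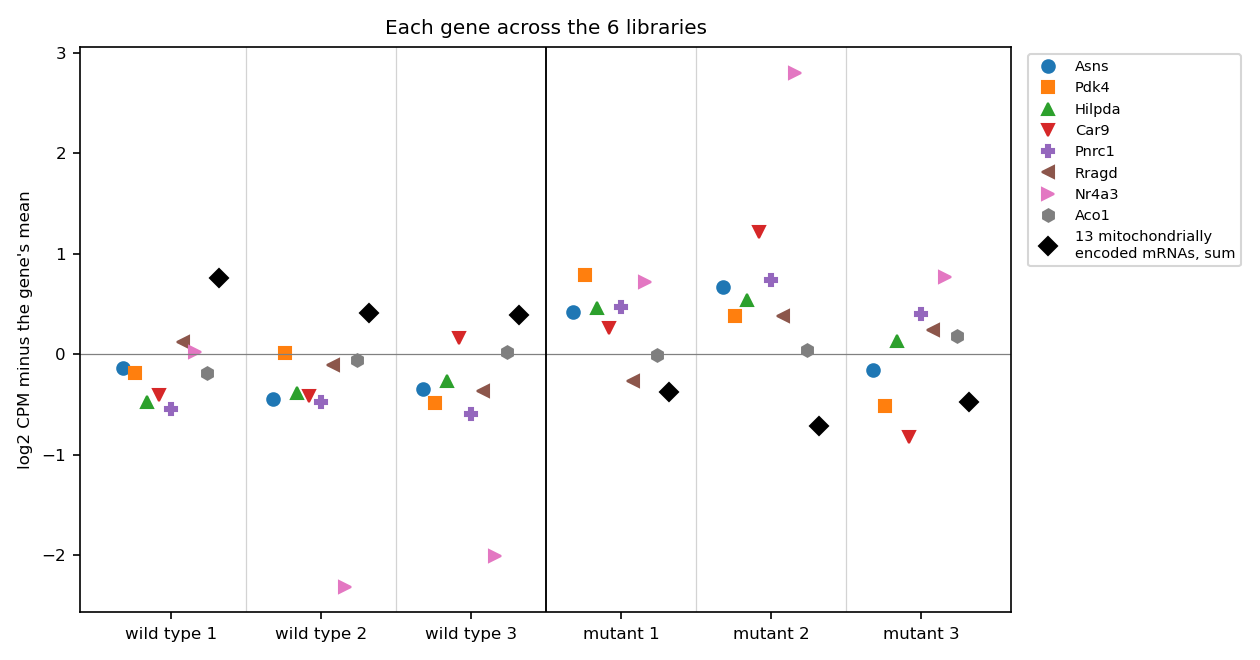
Log2 CPM minus the gene's own mean over the 6 libraries (vertical axis) for the 8 genes and for the sum of the 13 mitochondrially encoded mRNAs (black diamonds), by library. Nr4a3 and Car9 reach 2.80 and 1.22 in mutant replicate 2, where the mitochondrial sum is lowest, at -0.71.

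By the distance between centred log2 CPM values over the 6 libraries, Bmt2 was most like both Hilpda and Pnrc1 among 200 genes of the readable stretches. It stood at 164, 152 and 162 CPM in wild type and 296, 304 and 257 CPM in the mutant, with root mean square differences of 0.095 from Hilpda and 0.15 from Pnrc1. The nearest gene to Asns was Tes (0.17), to Rragd Ppp1r9a (0.17), to Aco1 Tmem168 (0.069), to Pdk4 Ica1 (0.28) and to Car9 Galnt12 (0.29). Nr4a3 was nearest to Cav1, at 0.72, against a median of 1.75 over the 200 genes. Likeness over 6 libraries of 2 groups mostly reflects the group difference and the position of single libraries.

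Some markers of other cells differed between the groups too. Their lists were drawn up with earlier results of these data known, so these differences are a description. Of 14 erythroid markers, Hemgn and Tmod1 could be read, with sums of 69.2 to 120.02 CPM in wild type and 17.6 to 26.1 CPM in the mutant. Hemgn made up most of these sums, and the groups overlapped for Tmod1. Of 8 endothelial and mesenchymal markers, Cav1 and Col1a2 could be read. Summed, they made up 181 to 227 CPM of the wild-type libraries and 343 to 1110 CPM of the mutant libraries. The sum was highest in mutant replicate 2, and Col1a2 was the larger part of it in every library. In the fit of all libraries Hemgn was called lower (3.67% of all features) and Cav1 and Col1a2 higher (4.25%), whereas Tmod1 was not called. None of these 4 was at 0 in any library, and 0 of 9 neural markers could be read. Rows named for 4 genes of the Y chromosome, outside the readable stretches, stood at means of 146 to 236 CPM in wild-type replicate 1 and mutant replicates 2 and 3 and at 0.15 CPM or below in the other 3 libraries. The names of these rows were not checked by their neighbors, so the term for sex rests on that split between libraries. The part of cell composition in the differences above was not tested, and in bulk tissue fewer cells of a type and less RNA per cell cannot be told apart. With that term Pnrc1 and Hilpda kept their calls, at 1.07 and 0.81 on the log2 scale, where 1.88% of features were called higher.

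In the authors' deposited table, 4 of the 8 had an adjusted p below 0.05, all higher: Pnrc1 (log2 fold change 1.09), Hilpda (0.77), Asns (0.66) and Nr4a3 (2.88). Of the features with an adjusted p in the authors' deposited table, 6.69% were higher at that threshold. The Wald test of DESeq2 on the filtered counts called the same 4, with 7.21% of features higher. These 4 were also called when mutant replicate 3 was left out (5.2%). With no low-count filter they were called too (4.06%), but adjusted p-values of Asns and Nr4a3 were far smaller there than in any other edgeR fit, so those calls are in doubt. With wild-type replicate 1 left out, Nr4a3 joined Pnrc1 and Hilpda (2.71%), and without wild-type replicate 2 Pnrc1 alone was called (0.44%).

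**Figure D5:**
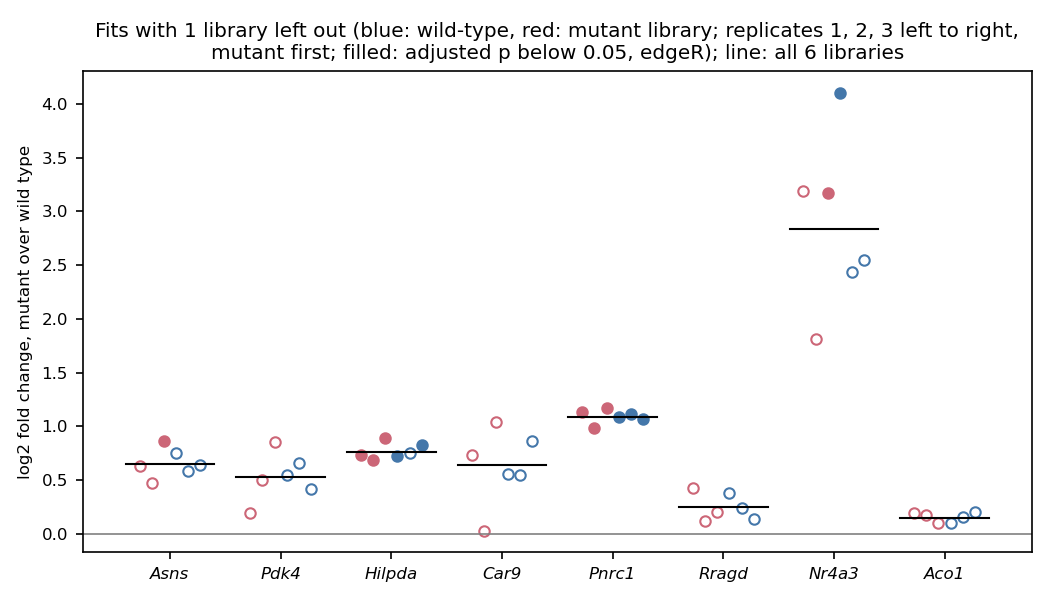
Log2 fold change of each gene (vertical axis) with 1 library left out, coloured by the group of that library (wild type blue, mutant red), filled where the adjusted p was below 0.05 in edgeR. Lines give the value with all 6 libraries. Points of Pnrc1 lie between 0.99 and 1.17, those of Nr4a3 between 1.81 and 4.10.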

How the data were processed

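The table of raw counts that the authors deposited holds whole numbers by Ensembl ID. Per the submitters' processing notes, the build was mm39 and the tools were DESeq2, DESeq, featureCounts and Bowtie, without versions. Annotation release and strand setting are not given in the sources used here, though per the labels' protocols a stranded mRNA kit was used. The authors' deposited DESeq2 table gives the mean normalized count (a signal), the log2 fold change with its error, the Wald score, and p-values. Column names of the counts carry a stage label other than that of the sample labels, whose day 9.5 is used here. Its genotype letters and number tie each column to a single sample title.

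IDs were cut to 18 characters, and 52029 of 56953 matched a symbol. Gene order, overlap and exon length came from GENCODE M21, of an older build. Readable stretches were found without the genotype, by a hidden Markov model over genes of ubiquitously expressed families, picked by the start of their symbols. The chance of detection at 10 CPM was set to 0.95 where names fit and 0.25 elsewhere, and that of changing state to 0.03. Runs of 6 or more genes with a posterior above 0.95 were kept. Counts were compared with edgeR 4.0.16 in R 4.3.3 (filterByExpr, TMM, quasi-likelihood F test, no covariate, Benjamini-Hochberg over 14550 features). Standard errors come from the F statistic. CPM use TMM-scaled library sizes, except in the search for stretches, which used plain totals. Alternatives were DESeq2 1.42.0 (Wald test, size factors), limma-voom 3.58.1, no low-count filter, library sizes without mitochondrially encoded genes, a term for sex (from 4 rows named for Y-linked genes), a replicate block, and each library left out. The scripts were tested on simulated counts.

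Members, gene lists, motifs and tests were chosen with earlier results of these data known. Named were the 8 genes, the mitochondrially encoded mRNAs, every tested gene of the fixed lists on a readable stretch, and for each of the 8 the gene of those stretches with a mean of 10 CPM or more and the smallest root mean square difference of centred log2 CPM (prior count 2). Motifs, searched on both strands of the 250 bases before each RefSeq start (GRCm38.p6; all 8 genes matched), were the hypoxia cores ACGTG and also GCGTG, the amino acid response element TGATGNAAN, the E-box CACGTG (which contains the first core), the cyclic AMP core TGACG (which can overlap the first core), the FOXO site TGTTTAC and the NR4A site AAAGGTCA.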

Additional observations from a re-analysis of the deposited data

How the results depend on the processing

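All 8 log2 fold changes kept a positive sign in the 13 alternative fits, and 0 of the 8 were called lower in any. The lowest values were 0.03 for Car9 and 0.08 for Rragd. These fits reuse the libraries that were in view when the genes were picked, so nothing is read from the kept signs. The number of the 8 called higher, 2 with all libraries, was 4 in the DESeq2 Wald test and 4 with no low-count filter, and 1 to 4 with 1 library left out; Pnrc1 was called in all 13, Hilpda in 12, Nr4a3 in 4 and Asns in 3. With no filter, p-values of Pnrc1, Hilpda, Nr4a3 and Asns were far smaller than in the other edgeR fits and are in doubt. The mitochondrially encoded mRNAs called lower numbered 10 to 13 with 1 library left out. Over all features, 618 were higher and 534 lower. The DESeq2 Wald test gave 967 higher, no low-count filter gave 1352 and 1145, the term for embryo sex gave 273 and 264, and leaving out 1 library gave 66 to 783 and 63 to 565. The fewest, 66 and 63, came without wild-type replicate 2, and 163 and 151 came without wild-type replicate 3; without mutant replicate 1 there were 327 and 259, and without wild-type replicate 1 there were 408 higher. The cause was not tested, beyond the smaller number of libraries in such fits. The log2 fold change of Klf4, -0.18, lay between -0.41 (-0.405) and 0.03 (0.025) with 1 library left out, the latter without mutant replicate 3. Deviations of libraries with the same number correlated at -0.23, -0.01 and -0.01, so the numbers do not show pairing; with the replicate block 2 of the 8 were called, 433 features were higher and 411 lower. Depth limits Pdk4, Car9 and Nr4a3 most, with 14 to 413 reads per library.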
